A study of Mus musculus with 374 samples.

Results

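The adult globin genes of the mouse encode the chains of haemoglobin, the oxygen carrier of the red cell. They were chosen by name, together with Ahsp, the gene of a chaperone that binds free alpha chains. Of these 5 genes, the alpha genes Hba-a1 and Hba-a2 and the beta genes Hbb-bs and Hbb-bt had a row that could be matched by symbol among the 19829 mouse genes of the count table, and they are called the haemoglobin genes here. Ahsp was not analysed here, because its row could not be matched to a symbol.

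Adult haemoglobin is a tetramer that pairs alpha chains with beta chains, each holding a haem group. The alpha genes and the beta genes lie in separate clusters, each under its own distal enhancers, and developing erythroblasts switch them on strongly as they mature. Free alpha chains are unstable and harmful, so the balance of alpha to beta is a long-studied property of these cells and is disturbed in the thalassaemias. While erythroblasts mature in the bone marrow they shrink, lose the adhesion protein CD44 and gain the surface antigen Ter119, so both proteins are used to stage them.

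Each chain is encoded by a pair of near-identical genes in this strain, and the bases that tell the copies apart decide how the counts can be read. In GENCODE M21 (GRCm38), Hba-a1 (ENSMUSG00000069919) lies on the plus strand at chr11:32283511-32284465 and Hba-a2 (ENSMUSG00000069917) on the plus strand at chr11:32296489-32297298. Hbb-bs (ENSMUSG00000052305) lies on the minus strand at chr7:103826534-103828096 and Hbb-bt (ENSMUSG00000073940) on the minus strand at chr7:103812524-103813996. No exon of another annotated gene overlaps an exon of any of them. Both coding sequences of a pair have the same length, 426 bases for alpha and 441 bases for beta without the stop codon, and differ at 1 base that leaves the encoded protein unchanged. The 41 coding bases around that position, all in exon 3, are shown for each copy with the differing base in capitals, and positions are counted from 1 at the first base of the start codon.
Hba-a1, chr11:32284323-32284363: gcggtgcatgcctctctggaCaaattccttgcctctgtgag
Hba-a2, chr11:32297140-32297180: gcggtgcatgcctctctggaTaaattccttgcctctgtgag
Hbb-bs, chr7:103826672-103826712, minus strand: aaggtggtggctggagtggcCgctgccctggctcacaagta
Hbb-bt, chr7:103812663-103812703, minus strand: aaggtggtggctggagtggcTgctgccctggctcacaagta
The alpha copies differ by C381T and the beta copies by C417T, with the first-named copy first.

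CEL-seq2 reads the 3′ end of a transcript, so the sequence after this base matters. The 122 bases that follow it in the annotated Hba-a1 transcript were identical in Hba-a2, whose annotated transcript continues for 16 more bases. A read that lies wholly within those 122 bases therefore carries nothing that separates the alpha copies. For the beta copies the identical run after the coding difference was 27 bases, and the sequences after the stop codon (131 and 132 bases) differed by 35 mismatches and 5 gap positions. How the authors' alignment placed reads that match both copies is not given in the sources used here, so the sums of alpha and of beta are firmer than the split between copies, and this holds most for alpha.

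The members are also alike just upstream of their starts. From 95 to 66 bases before the RefSeq start (GRCm38.p6), all 4 promoters hold the letters CCAAT and both beta promoters hold CACCC, motifs known from globin promoters. The 30 bases of each are printed in the direction of transcription, with every match to CCAAT or CACCC on either strand in capitals.
Hba-a1, chr11:32283577-32283606: aaaccagCCAATgagaactgctccaagggc
Hba-a2, chr11:32296397-32296426: ccagCCAATgagaactgctccaagggcgtg
Hbb-bs, chr7:103827994-103828023, minus strand: agccaCACCCtggtaagggCCAATctgctc
Hbb-bt, chr7:103813989-103814018, minus strand: gggtaaCACCCtggcATTGGCCAATctgct
CCAAT on either strand occurred in this window in 6.96% of 32851 promoters of the same table and CACCC in 8.48%, and the motifs do not overlap each other in these windows. The letters TATAA began 27 to 30 bases before the start in all 4 genes, while 4.75% of all promoters held them on either strand between 40 and 11 bases before the start. GENCODE starts Hba-a1, Hbb-bs and Hbb-bt further upstream than RefSeq, so these windows lie wholly or partly within its gene bodies. The matches are descriptions of sequence and were not tested as sites.

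The counts came from 1 female C57BL/6 mouse aged 10 to 13 weeks, whose cells were sorted 1 per well into a single plate and sequenced by CEL-seq2, which tags each captured molecule with a UMI (a random sequence that allows copies of 1 molecule to be counted once). The labels give 96 wells of erythroblasts (bone marrow, Ter119+ CD44+, mid to high forward scatter area), 44 of B lymphocytes (bone marrow, B220+, low forward scatter area), 96 of granulocytes (bone marrow, Mac1+ Gr1+), 95 of progenitor/stem cells (bone marrow, Lin- Kit+ Sca1+) and 43 of T lymphocytes (thymus, CD3+, low forward scatter area). The labels name no treatment and no engineered allele. All wells of a population share that mouse, so each population is 1 sample, no test between populations was possible, and every interval given is a 95% interval for counting error only. The fluorescence of each sorted cell was recorded with its well and is given in arbitrary units.

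The total of UMIs on mouse genes per erythroblast well ran from 466 to 20457 with a median of 6113.5, and the medians of the other populations lay between 3028.5 and 7959.0. All 374 wells had distinct barcodes. The labels of the erythroblasts held against 8 erythroid markers other than the haemoglobin genes (among them Car2, Alas2, Slc4a1, Epb42, Rhag and Hemgn), which took 1.71% of their UMIs and 0.0751% to 0.139% in the other populations. Several wells stand apart and bear on the haemoglobin values. Erythroblast well C5 had 466 UMIs and 70 haemoglobin UMIs, granulocyte well G5 had 8 UMIs and no haemoglobin UMI, and well A8, labelled as a B lymphocyte, had 11.5% granulocyte marker UMIs. In the other populations, 17 wells had a haemoglobin share within the erythroblast range, among them B lymphocyte wells B19 to B24 and progenitor/stem cell wells K5 and L11, and the levels, folds and copy use of those populations are given with and without the 17, a choice made after their values were seen.

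The haemoglobin genes were among the most abundant transcripts of the erythroblasts. Summed over the 96 wells they held 156928 of 666728 UMIs, or 23.5% (23.4% to 23.6%). Hbb-bs was the most abundant with 56827 UMIs, Hba-a1 followed with 49209, then Hbb-bt with 26861 and Hba-a2 with 24031. All are counts of 3′ tags, 1 per molecule, and are not scaled by transcript length. Each of the 4 genes had UMIs in all 96 wells.

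The level of every member varied widely from well to well. The Hbb-bs level in CPM (counts scaled to 1000000 UMIs on mouse genes per well) ran from 9910 through a median of 97564 to 196378, and that of Hba-a1 from 12668 through 85394 to 153582. Hbb-bt ran from 8101 through 46386 to 106061 CPM, and Hba-a2 from 4654 through 36926 to 116550 CPM. These ranges overlap almost entirely between the genes, and the coefficient of variation over wells was 0.522, 0.445, 0.462 and 0.592 in the same order. The order within a well was steadier than the levels. Hba-a1 exceeded Hba-a2 and Hbb-bs exceeded Hbb-bt in 96 of 96 wells, while Hbb-bs exceeded Hba-a1 in 72 wells and Hbb-bt exceeded Hba-a2 in 68.

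The summed haemoglobin share of a well ran from 3.53% in well F5 through a median of 26.6% to 52.3% in well F12. Among its 11604 UMIs, well F5 held 147 of Hba-a1 and 54 of Hba-a2 for alpha, and 115 of Hbb-bs and 94 of Hbb-bt for beta. Well F12 held 488, 400, 542 and 364 UMIs of the same genes among 3432. The well with the smallest share thus had more UMIs in all than the well with the largest, and over the 96 wells the share ran against the total (Spearman rho -0.66, a description over wells of 1 mouse, 1 sort and 1 plate).

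**Figure D1:**
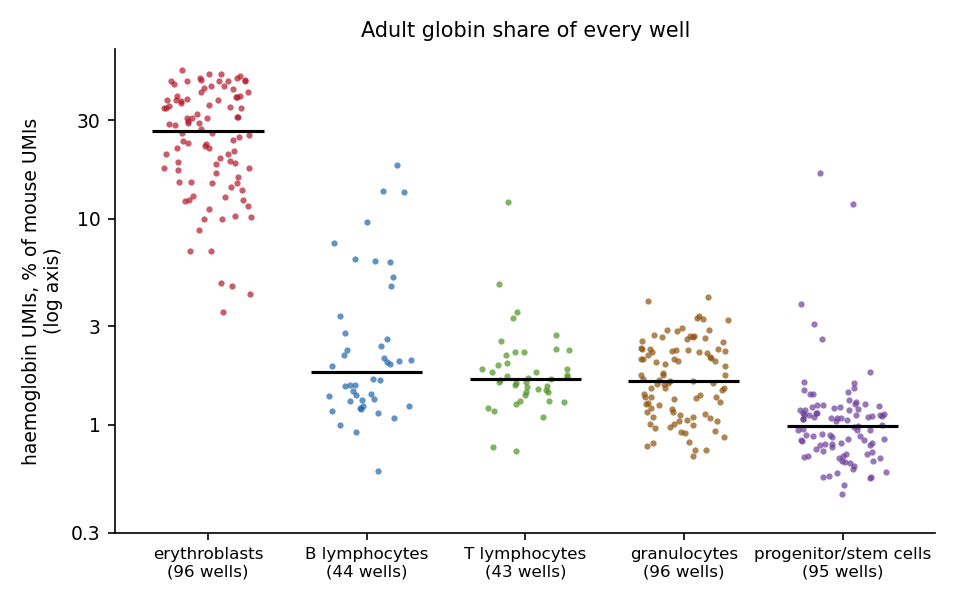
Haemoglobin UMIs as a percentage of the UMIs on mouse genes in each well (log axis), by population; each point is 1 well and each black line the median over wells, and the 1 granulocyte well with no haemoglobin UMI is not drawn. The erythroblast wells run from 3.53% to 52.3%, and 17 wells of the other populations reach the lowest of them.

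The members moved together over the erythroblast wells. Per UMI on other mouse genes, the rank correlation of their levels over 96 wells lay between 0.973 (Hba-a2 with Hbb-bt) and 0.988 (Hba-a1 with Hbb-bs) for single genes, and was 0.992 between summed alpha and summed beta. The points of each correlation share the well's depth in the denominator. Within the copies of a pair the values were 0.986 for alpha and 0.976 for beta. Both lay inside the range of 0.973 to 0.988 between single alpha and beta genes.

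Alpha UMIs were fewer than beta UMIs in the erythroblasts. The sums were 73240 for Hba-a1 plus Hba-a2 and 83688 for Hbb-bs plus Hbb-bt, a ratio of 0.875 (0.867 to 0.884). In the 95 wells with at least 100 haemoglobin UMIs, the ratio ran from 0.718 in well E3 through a median of 0.887 to 1.09 in well D6, with 86 wells under 1 and 9 above. Well E3 held 831 alpha and 1157 beta UMIs, and well D6 held 260 and 238. Well C5, left out for its depth, held 42 alpha and 28 beta UMIs.

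This balance varied little over wells compared with the level of the genes themselves, which spanned more than 10-fold. The SD of the log2 ratio of alpha to beta over the 95 wells was 0.137, beside 0.0785 that binomial counting alone would give at these depths, and the variance was 3.29 times the binomial value. In 29 of the 95 wells the alpha share lay outside the 95% binomial range around the pooled share. By plate row the ratio of the sums was 0.887 (row C), 0.869 (row D), 0.849 (row E) and 0.909 (row F). Some rows, such as E and F, differed by more than counting error, and all stayed under 1.

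**Figure D2:**
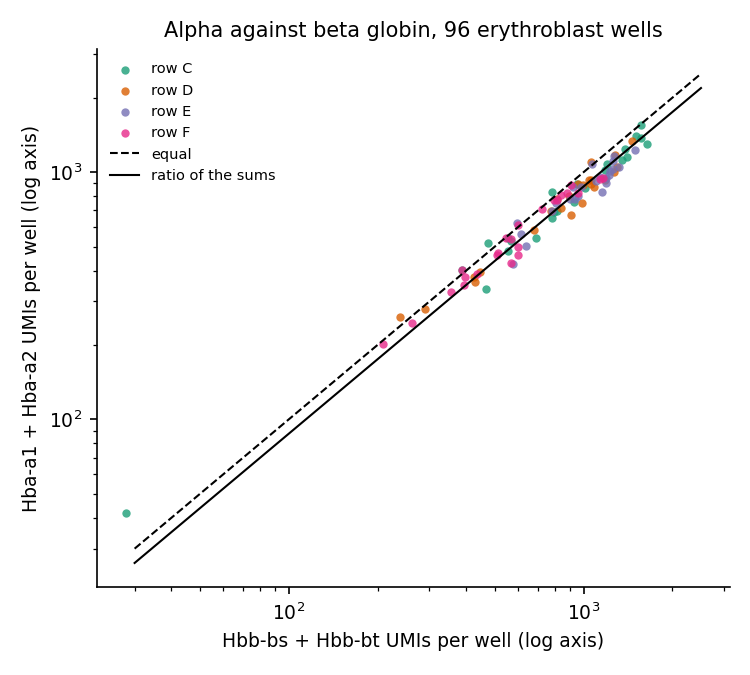
Alpha UMIs (Hba-a1 + Hba-a2) against beta UMIs (Hbb-bs + Hbb-bt) in the 96 erythroblast wells, both on log axes and coloured by plate row; the dashed line marks equal counts and the solid line the ratio of the sums, 0.875. Nearly all wells lie just under the dashed line over the whole range of levels, and the lowest point is well C5.

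Within each pair, about 2 of every 3 UMIs were assigned to 1 copy. Hba-a1 held 67.2% of the alpha UMIs (66.8% to 67.5%) and Hbb-bs held 67.9% of the beta UMIs (67.6% to 68.2%). Over the 95 wells the Hba-a1 share ran from 55.0% in well F12 through 67.7% to 75.9% in well C15. The Hbb-bs share ran from 54.0% in well C15 through 67.7% to 75.3% in well D12. Both copies had UMIs in every well, with the first-named ahead in each. Reads wholly within the 122 bases shared by the alpha copies cannot separate them. How such reads were placed is not given, and their part in the alpha split was not tested.

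Copy use was more variable over wells than the alpha to beta ratio. The variance was 6.69 times the binomial value for the Hba-a1 share and 6.67 times for the Hbb-bs share, and for each of them 45 of 95 wells lay outside the 95% binomial range. The plate rows spanned 65.9% to 68.2% for Hba-a1 and 65.7% to 69.8% for Hbb-bs.

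The CD44 fluorescence of the sorted cell served as the stage axis. It ran from 976 to 6170 over the erythroblast wells with a median of 2526.5, and wells with more CD44 had a smaller haemoglobin share (Spearman rho -0.59 over 96 wells, Pearson r -0.60 on log2 CD44). The 4 plate rows gave -0.57, -0.53, -0.58 and -0.70, and the value was -0.57 without the wells farthest from the median CD44 (C1 and C4). The single genes gave -0.57 (Hbb-bt) to -0.62 (Hba-a2).

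In bands of 24 wells by CD44, the difference lay between the lower and the upper bands. The median haemoglobin share was 36.2% in the lowest band (CD44 976 to 1892), 35.9% in the next (1901 to 2526), 23.0% in the next (2527 to 3708) and 12.8% in the highest (3760 to 6170). The lowest bands differed little, and the wells of all bands overlapped, from 15.0% to 52.3% in the lowest band and from 3.53% to 39.3% in the highest.

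A share can be small because haemoglobin UMIs are few or because other UMIs are many, and the ERCC spike-ins, synthetic RNAs added to each well, give a second scale. Per ERCC UMI, the median of haemoglobin UMIs was 4.80, 4.58, 3.81 and 3.26 from the lowest to the highest CD44 band, while that of all other mouse UMIs was 8.26, 8.61, 12.9 and 21.2. The rank correlation with CD44 was -0.40 for haemoglobin UMIs per ERCC UMI and 0.60 for other UMIs per ERCC UMI. On this scale the other transcripts differed more between the outer bands than the haemoglobin transcripts did.

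Other properties of the wells moved with CD44 as well. CD44 had a rank correlation of 0.54 with the total of UMIs, 0.51 with forward scatter area (a measure of size) and -0.37 with Ter119. The correlation of the haemoglobin share with CD44 was -0.37 as a partial rank correlation given the total of UMIs and -0.52 given Ter119, and the part of depth in it was not tested further.

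The haemoglobin share followed Ter119 more closely than CD44. The rank correlation was 0.78 over the 96 wells and 0.74, 0.81, 0.63 and 0.86 within rows C, D, E and F. In bands of 24 wells by Ter119 the median share was 12.2%, 22.4%, 32.9% and 41.8% from the lowest to the highest. The CD44 bands stood at 36.2%, 35.9%, 23.0% and 12.8% in the same order, so their upper steps were large as well. All erythroblasts were gated as Ter119+ and CD44+, so these relations describe the cells inside that gate.

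**Figure D3:**
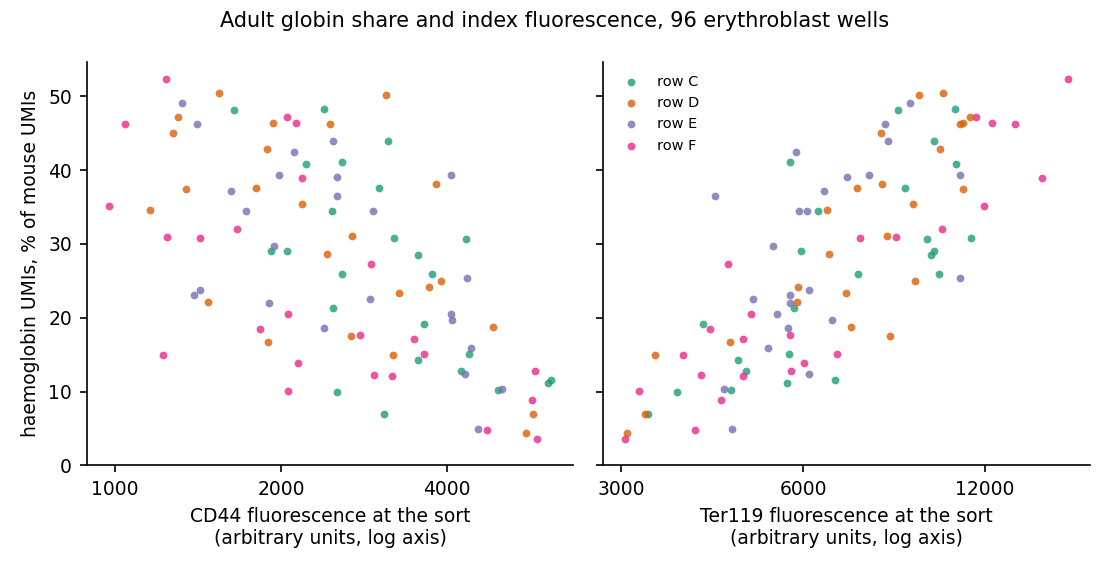
Haemoglobin UMIs as a percentage of mouse UMIs against CD44 (left) and Ter119 (right) fluorescence at the sort, in arbitrary units on log axes, for the 96 erythroblast wells coloured by plate row. The share is lower in wells with high CD44 (rho -0.59) and higher in wells with high Ter119 (rho 0.78), in every plate row.

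The alpha to beta ratio had no such relation. Its rank correlation with CD44 was 0.05 over 96 wells, and within the plate rows it was 0.32 (C), 0.28 (D), -0.29 (E) and -0.22 (F). The ratio of the sums was 0.892, 0.851, 0.874 and 0.889 from the lowest to the highest CD44 band. The median over wells was 0.900, 0.858, 0.867 and 0.943 in the same order, so it was largest in the highest band. With Ter119 its rank correlation was -0.07 and with the haemoglobin share -0.19.

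Copy use did vary with the haemoglobin share, in opposite directions for the leading copies of the pairs. Wells rich in haemoglobin had a smaller Hba-a1 share of alpha (rho -0.77; -0.81, -0.68, -0.74 and -0.89 by row) and a larger Hbb-bs share of beta (rho 0.58; 0.41, 0.72, 0.23 and 0.73 by row). In sums by CD44 band, Hba-a1 held 64.8%, 66.3%, 67.6% and 71.2% of alpha from the lowest to the highest band, and Hbb-bs held 69.5%, 68.2%, 67.1% and 66.3% of beta. By Ter119 band the Hba-a1 values were 70.8%, 69.6%, 66.9% and 63.7%, and the Hbb-bs values 62.7%, 67.5%, 68.7% and 70.0%.

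The ends of the scale show the size of this difference. Well F12, with the largest haemoglobin share, had 55.0% of its alpha UMIs from Hba-a1, while well F5, with the smallest, had 73.1%. For beta the same wells had 59.8% and 55.0% from Hbb-bs, and F12 lay well under the other haemoglobin-rich wells. The rank correlation of copy share with CD44 was 0.54 for Hba-a1 and -0.35 for Hbb-bs, the latter weak in row C (-0.08).

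Highly abundant genes can use up the UMI sequences, which lowers their counts, and this was computed because the leading copies would lose most. The largest count of 1 member in 1 well was 1128 for Hbb-bs in well C8. That is 27.5% of the 4096 sequences a 6-base UMI allows, the length that the labels' UMI positions give. Corrected for such collisions, that count would be 17.0% larger, and the sums would be 7.99% larger for Hba-a1, 3.93% for Hba-a2, 9.87% for Hbb-bs and 4.13% for Hbb-bt. With 8-base UMIs, which another part of the labels gives, each sum would change by under 1%. With the 6-base correction the rank correlation with the haemoglobin share was -0.74 for the Hba-a1 share and 0.60 for the Hbb-bs share, close to the uncorrected values. The merging of UMIs at 1 mismatch in the authors' processing could remove further molecules at such counts and was not tested, and reads shared between the alpha copies were not tested as a part of these relations.

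**Figure D4:**
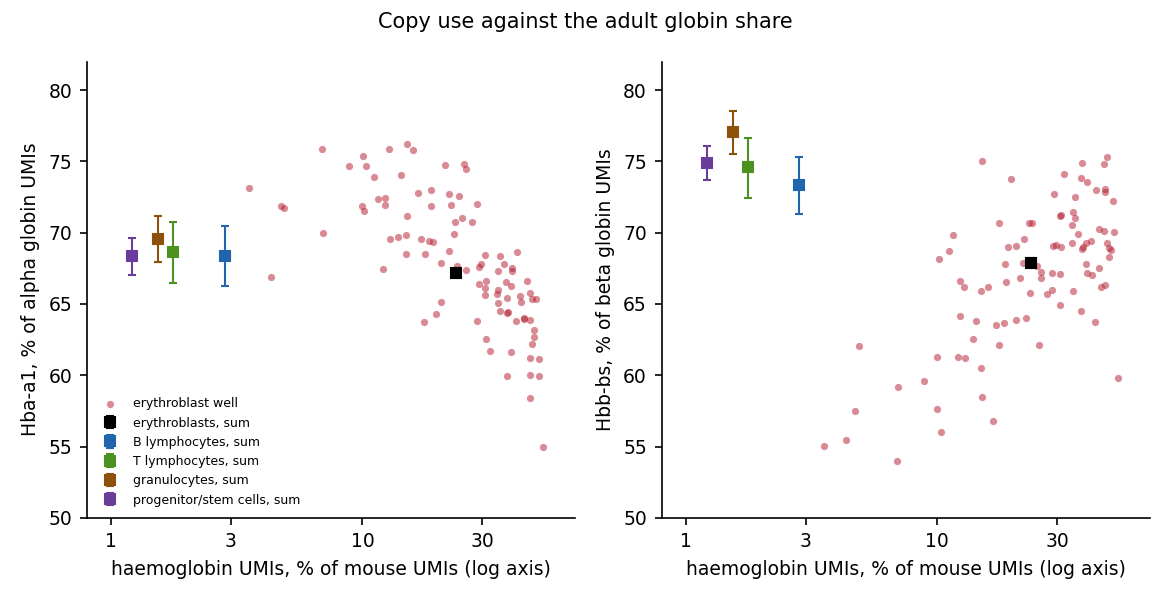
Share of Hba-a1 among alpha UMIs (left) and of Hbb-bs among beta UMIs (right) against the haemoglobin share of mouse UMIs (log axis); red points are the 96 erythroblast wells and squares the sums of each population with 95% counting intervals. Over the erythroblast wells the Hba-a1 share is lower and the Hbb-bs share higher in haemoglobin-rich wells (rho -0.77 and 0.58), and the Hbb-bs share of the other populations lies at 73.3% to 77.1%, above the 67.9% of the erythroblast sum.

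All 4 members were also counted in the other populations, at far lower levels. From high to low, the summed Hbb-bs level was 85233 CPM (erythroblasts), 10323 CPM (B lymphocytes), 6382 CPM (T lymphocytes), 5886 CPM (granulocytes) and 4601 CPM (progenitor/stem cells). Hba-a1 stood at 73807, 9720, 6273, 5415 and 4096 CPM in the same order, and Hbb-bt at 40288, 3755, 2176, 1752 and 1543 CPM. Hba-a2 stood at 36043, 4492, 2864, 2369 and 1896 CPM. The order of the populations was the same for all 4 genes, and over wells the neighbours among the 4 low populations overlapped. Without the wells at or above the lowest erythroblast share, Hbb-bs stood at 5931 CPM (B lymphocytes), 5800 CPM (T lymphocytes), 5779 CPM (granulocytes) and 3672 CPM (progenitor/stem cells), and Hba-a1 at 5169, 5888, 5348 and 3443 CPM. The progenitor/stem cells then stayed lowest for all 4 genes, while the order of the other 3 populations differed between genes.

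In the B lymphocyte wells the haemoglobin share ran from 0.600% through a median of 1.80% to 18.1%, the last in well B6 with 485 UMIs. In the T lymphocytes it ran from 0.749% through 1.67% to 12.0%, the last in well P4 with 426 UMIs. Granulocyte wells ran from 0% (G5) through 1.63% to 4.16%, and progenitor/stem cell wells from 0.464% through 0.991% to 16.7% in well L11. The medians of the B lymphocytes, T lymphocytes and granulocytes were thus close to each other and that of the progenitor/stem cells lowest.

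A few wells reached the erythroblast range and none of them its median. At or above the lowest erythroblast share were 10 of 44 B lymphocyte wells (A22, B6, B10 and B18 to B24), 2 of 43 T lymphocyte wells (P4 and P21), 2 of 96 granulocyte wells (H7 and I12) and 3 of 95 progenitor/stem cell wells (K5, K6 and L11). Well L11 held 534 UMIs of Hbb-bs, 407 of Hba-a1, 270 of Hba-a2 and 208 of Hbb-bt, with 20 erythroid marker UMIs among 8492 UMIs. Its Ter119 fluorescence was 99, and no well outside the erythroblasts came above 188, while the lowest erythroblast well had 3046. Without A8 and B19 to B24 the summed share of the B lymphocytes was 1.93% in place of 2.83%, and without K5 and L11 that of the progenitor/stem cells was 1.03% in place of 1.21%. The choice of K5 and L11 followed sight of their values.

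These low levels were spread over nearly all wells. Thinned to 1000 UMIs a well, which left out 1 B lymphocyte, 1 T lymphocyte, 2 granulocyte and 1 erythroblast well, the expected share of wells with at least 1 Hbb-bs UMI was 96.5% to 99.4% in the other populations and 100% in the erythroblasts. For Hbb-bt it was 67.5% in the progenitor/stem cells and 82.7% to 85.2% in the other 3. Unthinned, each member was seen in at least 42 of 44, 43 of 43, 94 of 96 and 95 of 95 wells of the B lymphocytes, T lymphocytes, granulocytes and progenitor/stem cells. A share of wells with a UMI counts wells in which the transcript was captured, not cells that express it.

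The erythroid markers were low in the same populations. They took 0.0751% of the granulocyte UMIs, 0.0923% of the T lymphocyte UMIs, 0.134% of the progenitor/stem cell UMIs and 0.139% of the B lymphocyte UMIs, all 8 with at least 1 UMI in each, and from 0% to 12.5% of a well, the last in granulocyte well G5 with its 8 UMIs. For each erythroid marker UMI there were 13.8 haemoglobin UMIs in the erythroblasts, 9.09 in the progenitor/stem cells, 19.2 in the T lymphocytes, 20.3 in the B lymphocytes and 20.5 in the granulocytes. Without the wells at or above the lowest erythroblast share it was 7.56 in the progenitor/stem cells and 20.4 to 20.9 in the other 3. The part of free RNA, of erythroid RNA from other cells or of the cells' own transcripts in these values was not tested.

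Set against the other genes, all 4 members passed the 4-fold mark in every comparison. Called here means at least 4-fold higher in the erythroblasts by CPM, among genes with at least 50 UMIs in both populations together, with sums under 3 UMIs set to 3. Against the B lymphocytes 17.3% of 2324 genes passed, against the T lymphocytes 17.7% of 2609, against the granulocytes 20.0% of 3057 and against the progenitor/stem cells 8.27% of 4791. The summed haemoglobin genes were 8.32-fold higher than in the B lymphocytes (8.06 to 8.59), 13.3-fold higher than in the T lymphocytes (12.9 to 13.8), 15.3-fold higher than in the granulocytes (14.9 to 15.7) and 19.4-fold higher than in the progenitor/stem cells (19.0 to 19.8). Without the wells at or above the lowest erythroblast share the folds were 15.5 (14.8 to 16.3), 14.5 (14.0 to 15.1), 15.5 (15.1 to 15.9) and 24.1 (23.5 to 24.6), so that the smaller fold against the B lymphocytes rested on those wells. Those wells were left out for their high haemoglobin share, so the folds without them had to be larger and are no further test of the 4-fold mark.

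The members were not alike in this fold. Hbb-bt had the largest of the 4 in each comparison, with 10.7, 18.5, 23.0 and 26.1, and Hba-a1 the smallest, with 7.59, 11.8, 13.6 and 18.0. Many genes had larger folds, since the members ranked 45 to 158 among the genes tested.

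The fold depends on the scaling. With TMM factors the haemoglobin fold was 14.1, 23.8, 16.3 and 35.3 in the same order, and with scran size factors 19.1, 34.5, 22.4 and 59.1, and all 4 members passed the 4-fold mark under each. The median of all genes tested moved by 0.76, 0.84, 0.09 and 0.86 on the log2 scale with TMM and by 0.67, 0.82, 0.31 and 0.97 with scran. Relative to that median the haemoglobin genes stood 2.70, 3.71, 3.38 and 5.01 higher (log2) by CPM. Among all genes past 4-fold in either direction, those higher in the erythroblasts were 69.5%, 61.4%, 51.9% and 27.7% by CPM, and 86.1%, 78.0%, 53.8% and 51.3% with TMM.

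The alpha to beta ratio and the Hbb-bs share were higher in the other populations than in the erythroblasts, while the Hba-a1 share differed less. The alpha to beta ratio of the B lymphocytes was 1.01 (0.947 to 1.08), that of the T lymphocytes 1.07 (0.999 to 1.14), that of the granulocytes 1.02 (0.969 to 1.07) and that of the progenitor/stem cells 0.975 (0.938 to 1.01). Over the erythroblast ratio these were 1.15 (1.08 to 1.23), 1.22 (1.14 to 1.30), 1.16 (1.11 to 1.23) and 1.11 (1.07 to 1.16). Without the wells at or above the lowest erythroblast share, the value was 1.10 (0.995 to 1.21) for the B lymphocytes and 1.16 to 1.27 for the others. Some plate rows of erythroblasts differed by more than counting error too, so these intervals do not cover the spread between cells.

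The Hbb-bs share of beta was higher in each of them, beside 67.9% in the erythroblasts. It stood at 73.3% (71.3% to 75.3%) for B lymphocytes, 74.6% (72.4% to 76.6%) for T lymphocytes, 77.1% (75.5% to 78.5%) for granulocytes and 74.9% (73.7% to 76.1%) for progenitor/stem cells. The odds of Hbb-bs over Hbb-bt were 1.30, 1.39, 1.59 and 1.41 times those of the erythroblasts, with lower bounds of 1.17, 1.24, 1.46 and 1.32. Without the wells at or above the lowest erythroblast share, the Hbb-bs share was 76.6%, 75.7%, 77.2% and 75.6%, and the lower bounds of the odds were 1.32, 1.30, 1.47 and 1.36. Within the erythroblasts the wells with little haemoglobin had small Hbb-bs shares, whereas the other populations, with still less, had large ones. The Hba-a1 share of alpha differed less, at 68.4%, 68.7%, 69.6% and 68.4% against 67.2%, and the interval of the odds lay above 1 in the granulocytes (1.03 to 1.21) and included 1 in the other 3. Without the wells at or above the lowest erythroblast share it lay above 1 in the progenitor/stem cells as well (1.06 to 1.22). These odds intervals cover counting error only and not the spread between cells. Over the erythroblast wells the variance of the Hba-a1 share was 6.69 times the binomial value. That of the Hbb-bs share was 6.67 times.

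The genes most like the haemoglobin genes over the erythroblast wells were sought among the 1121 other genes seen in 50% or more of the wells, with both levels per UMI outside the members. The highest rank correlation was that of Hba-ps4, an alpha globin pseudogene with 3469 UMIs, at 0.97. Over 445 aligned bases its annotated transcript is 84.9% identical to Hba-a1, and whether its UMIs came from the alpha genes was not tested. Slc4a1, the anion exchanger of the red cell membrane, followed at 0.91, Alas2, the first enzyme of haem synthesis in erythroid cells, at 0.87 and Gpx1, a glutathione peroxidase, at 0.84.

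Also among the top 10 were Slc25a37, which carries iron into mitochondria (0.80), Rhd, a red cell membrane protein (0.78), Grina (0.77), the nuclear RNA Malat1 (0.75) and Ube2c, a ubiquitin-conjugating enzyme of mitosis (0.74). At the other end stood Rplp1 (-0.77) and Rps4x (-0.77), which encode ribosomal proteins, with Gm15500, Gm10275, Gm9794, Rps13-ps2, Mir703, Gm6472, Rpl22 and Rpl36a-ps2 between -0.76 and -0.74. Over all 1121 genes the median was -0.05, with 68 genes at 0.5 or above and 159 at -0.5 or below. The genes at the low end had positive rank correlations with CD44, from 0.46 to 0.68, and those at the high end negative ones, from -0.41 to -0.57. The total of UMIs moved with these genes too, at 0.45 to 0.57 for the low end and -0.41 to -0.65 for the high end.

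**Figure D5:**
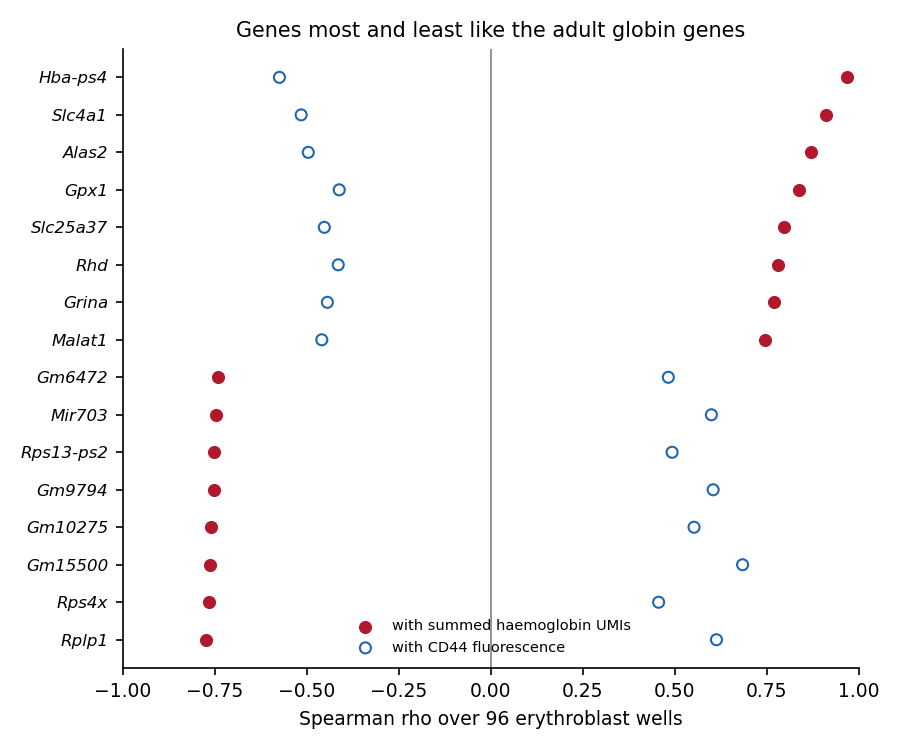
Spearman rho over the 96 erythroblast wells for the 8 genes most and the 8 genes least like the summed haemoglobin genes; filled red points are the correlation with haemoglobin UMIs and open blue points that with CD44 fluorescence, with gene levels per UMI outside the haemoglobin genes. Each gene has opposite signs on the haemoglobin and the CD44 measure.

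The remaining globin genes of the mouse clusters were scarce. The embryonic genes Hba-x, Hbb-y and Hbb-bh1 had 3, 16 and 12 UMIs in the erythroblasts, against 156928 for the adult genes. Hbb-bh3 had 89 UMIs and Hbq1b 85, and these were the only genes of that list with enough UMIs to be compared and passed the 4-fold mark against every population. Hbb-bh2 and Hbq1a had 1 and 3 UMIs, and Hbb-bh0 was not analysed here.

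Haem fills the globin chains, and most tested genes of the haem synthesis list were higher in the erythroblasts. The list also holds genes of iron supply (Slc25a37 and Tfrc). Of 12 genes with enough UMIs, 11 passed the 4-fold mark by CPM in each comparison. Against the B lymphocytes, T lymphocytes, granulocytes and progenitor/stem cells, 17.3%, 17.7%, 20.0% and 8.27% of all genes tested passed. Alas1 and Uros were under the minimum of 50 UMIs in every comparison. Alas1 had 2 UMIs in the erythroblasts and 4, 5, 47 and 39 in the other populations in that order. Uros had 44, against 1, 0, 0 and 2. The medians of the list were 3.36, 3.65, 4.00 and 3.82 (log2) against B lymphocytes, T lymphocytes, granulocytes and progenitor/stem cells, beside medians of 0.35, 0.02, 0.55 and -0.73 over all genes tested. Over the erythroblast wells their rank correlation with the haemoglobin genes ran from 0.20 (Alad) through a median of 0.42 to 0.87 (Alas2), and Fech, which inserts the iron, stood at 0.70.

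Regulators of the globin genes were higher less uniformly. Klf1, the activator that binds the CACCC element of the beta genes, stood 3.59 to 5.62 higher (log2), and Gata1 2.47 to 3.40 higher. Of the tested regulators, 5 of 8 passed by CPM against the B and T lymphocytes. The counts were 4 of 7 against the granulocytes and 3 of 8 against the progenitor/stem cells. Of all genes tested, 17.3%, 17.7%, 20.0% and 8.27% passed against these populations in that order. Lmo2 (-0.89), Nfe2 (0.30) and Tal1 (1.70) were among the regulators that did not pass against the progenitor/stem cells. Over the erythroblast wells the rank correlation with the haemoglobin genes was 0.51 for Nfe2, 0.39 for Klf1 and -0.12 for Gata1.

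The list named for the balance and disposal of globin chains had 5 members with enough UMIs. Of these, 3, 4, 3 and 4 passed by CPM in the same order of comparisons, beside 17.3%, 17.7%, 20.0% and 8.27% of all genes tested. Blvrb, a biliverdin reductase, is among them and passed in every comparison (2.65 to 5.75). Eif2ak1, the kinase that restrains globin translation when haem is short, stood 1.69 to 2.93 higher (log2) and had a rank correlation of 0.56 with the haemoglobin genes. Prdx2, an abundant red cell peroxidase, stood 3.26 to 4.75 higher with a rank correlation of 0.28. Ube2o, which marks unpaired alpha globin for destruction, stood 2.25 to 4.07 higher with 0.39. Atf4 did not pass in any comparison by CPM (1.07 to 1.44), and Hspa1a and Hspa8 were not analysed here. The fixed lists were compared by CPM only. With TMM the median of all genes tested stood 0.09 to 0.86 higher (log2). A gene under the mark by CPM, such as Atf4 or Tal1, could therefore pass under that scaling. Against the granulocytes, where that median moved by 0.09, Atf4 (1.07 by CPM) would stay under the mark.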

How the data were processed

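Single cells of 1 mouse were index-sorted and prepared by CEL-seq2. The authors trimmed barcodes and UMIs, aligned reads, assigned them to exons and removed duplicate UMIs within a Hamming distance of 1 with scPipe, and deposited raw UMI counts per gene and well. For aligner version, genome build, annotation and strand, the setting is not given in the sources used here. Left out were 9 columns without a matching sample, and the study's own filter on cells was not applied. Doublets were not called, since wells were sorted as single cells.

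Groups came from the labels. Of 19829 mouse gene IDs, 19755 had a symbol in the reference table. Ahsp had none and was not analysed here. UMIs were summed per population and given as CPM or as shares of all UMIs on mouse genes, with exact binomial, Poisson or conditional binomial intervals at 95%. Those cover counting error only, since PCR products and cells of 1 mouse are not independent samples. Named genes were the members, fixed lists, and the 10 highest and 10 lowest rank correlations. Some of these genes are not reported here by name. The members and lists were chosen with earlier results of these data known. Alternatives used scran 1.30.0 and edgeR 4.0.16 factors, without testing. The statistics were tested on simulated data. Sequences came from GENCODE M21 and RefSeq (GRCm38). Python 3.11.15, scipy 1.17.1 and R 4.3.3 were used.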

Additional observations from a re-analysis of the deposited data

How the results depend on the processing

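Of 80 alternatives over 15 results, 31 stayed within the counting interval or row spread of the value reported, 47 moved beyond it and 2 changed sign. For the rank correlations with CD44, the row spread was the SD of the plate row values, which were themselves among the alternatives. It was 0.07 for the haemoglobin share. For the alpha to beta ratio it was 0.32 around a value of 0.05, so the counts say little about that result. Equal weight for each well gave a haemoglobin share of 27.4% in the erythroblasts, an alpha to beta ratio of 0.893, an Hba-a1 share of 68.0% and an Hbb-bs share of 66.9%. The haemoglobin share was 22.3% with ERCC UMIs in the denominator and 25.7% without Gm42418. Corrected for collisions with 6-base UMIs, the haemoglobin share was 24.2%, the ratio 0.864, the Hba-a1 share 68.0%, the Hbb-bs share 69.1% and the SD of the log2 ratio 0.147. Chosen after seeing the data, the addition of Hba-ps4 gave a share of 24.1% and a ratio of 0.917. Plate rows C, E and F alone gave ratios of 0.887, 0.849 and 0.909. Rows C, D, E and F alone gave Hba-a1 shares of 67.6%, 66.6%, 68.2% and 65.9%, and rows D, E and F gave Hbb-bs shares of 69.8%, 67.6% and 65.7%. The rank correlation of haemoglobin share with CD44 was -0.70 within row F and -0.40 per ERCC UMI. That of the alpha to beta ratio changed sign within row E (-0.29) and row F (-0.22), and the cause was not tested.

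The log2 ratio of haemoglobin share, erythroblasts over another population, was 3.06 (B lymphocytes), 3.73 (T lymphocytes), 3.93 (granulocytes) and 4.28 (progenitor/stem cells). With scran size factors it was 4.25, 5.11, 4.48 and 5.89, with TMM factors 3.81, 4.57, 4.02 and 5.14, and by the median over wells 3.89, 3.99, 4.03 and 4.74. The median over wells gave shares of 1.80%, 1.67%, 1.63% and 0.991% in those populations. Without wells A8 and B19 to B24 the B lymphocytes were at 1.93%, without P4 and P21 the T lymphocytes at 1.62%, and without K5 and L11 the progenitor/stem cells at 1.03%, the last 2 chosen after seeing the data. Without the same wells, an alternative also added after seeing the data, the log2 ratio was 3.61 over the B lymphocytes, 3.86 over the T lymphocytes and 4.52 over the progenitor/stem cells.

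The 7 alternatives planned for Ahsp were not run, since it was not analysed here. Only wells with at least 1000 UMIs, which left out 5 wells, moved none of the results. For the spread of the alpha to beta ratio this had to hold, since well C5 was already left out of it. No paired analysis was possible because each population is 1 sample of 1 mouse and well numbers pair no cells. Depth limits the ratios of single wells, with a counting SD of 0.0785 on the log2 scale.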
